A study of Mus musculus with 6 samples.

Results

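Transcripts of 8 genes that mark biliary epithelium, Krt7, Krt8, Krt18, Krt19, Epcam, Sox9, Spp1 and Cldn7, were followed in RNA-seq libraries of mouse liver sinusoidal endothelial cells (LSECs), the endothelium of the hepatic microcirculation. The 8 genes were taken by symbol from the deposited gene table, in which all 8 were present among 23472 named genes (56825 entries with cDNA clones), and all 8 passed the filter on low counts. The wild-type group was 3 libraries from C57BL/6 mice aged 7 to 8 weeks. The RBPjcKO group was 3 libraries from mice of the same strain and age with a conditional knockout of Rbpj, which encodes the DNA-binding partner of the Notch receptors. Mice of both groups received tamoxifen by intraperitoneal injection, so the controls carry the agent too. The sources used here do not give the promoter that drives the recombinase, the way the cells were purified or whether each library came from its own animal, so p-values measure only the spread between these libraries.

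Cholangiocytes line the bile ducts and modify bile. They build a simple epithelium whose cytoskeleton rests on keratins, which polymerise as pairs of a type II (Krt7, Krt8) and a type I protein (Krt18, Krt19), and whose cells are joined by EpCAM and claudins. Sox9 is the transcription factor of duct fate, and Spp1 encodes osteopontin, a secreted ligand of integrins and CD44. Notch signalling from the portal mesenchyme is known to guide bile duct formation in the developing liver, and ducts run in the portal tract beside portal veins and arteries. Several of the 8 genes are not particular to ducts, since hepatocytes carry Krt8 and Krt18 and the mesothelium over the liver surface carries Krt7, Krt8, Krt18 and Krt19.

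All 8 genes had lower mean levels in RBPjcKO than in wild-type libraries, by 1.70-fold to 2.76-fold. Of the 8, 4 fell at an adjusted p under 0.05 in edgeR's quasi-likelihood test, with adjustment (Benjamini-Hochberg) over all genes tested: Spp1, Epcam, Cldn7 and Sox9. The 4 keratins were not called, and none of the 8 was higher. Over all 14869 genes tested, 7.74% were called lower, 9.0% higher and 16.7% in either direction. The same shares are the background for the counts of called genes in each list below. All 8 genes were lower at an unadjusted p under 0.05 by the same test, against 16.6% of all tested genes. In either direction 34.6% of all tested genes had such a p. For 7 of the 8 genes every RBPjcKO library lay below every wild-type library, which held for 19.6% of tested genes, and Krt19 was the exception. The median log2 fold change of the 8 genes was -1.26, against -0.005 for all tested genes. In bulk libraries, fewer cells of a type and less RNA per cell cannot be told apart.

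Libraries held 30958761 to 40459702 counts over named genes, and the biliary markers took 0.0282% to 0.0546% of them in wild-type and 0.0128% to 0.0209% in RBPjcKO libraries. The lowest count behind any value of the 8 genes was 77, for Cldn7 in RBPjcKO replicate 1. Rbpj itself stood at 41.6, 46.9 and 45.5 CPM (counts scaled to the library total with TMM normalisation) in wild-type and at 17.0, 19.8 and 17.6 CPM in RBPjcKO replicates 1 to 3, a 2.47-fold fall (by edgeR's quasi-likelihood test, adjusted p = 0.000982) counted over the whole gene. The LSEC marker Stab2, a scavenger receptor, was at 3800 to 4320 CPM in wild-type and 4580 to 5410 CPM in RBPjcKO libraries. This difference was not called (by edgeR's quasi-likelihood test, adjusted p = 0.113). Of the 12 LSEC markers listed, 4 were called lower and none higher, as given below.

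**Figure D1:**
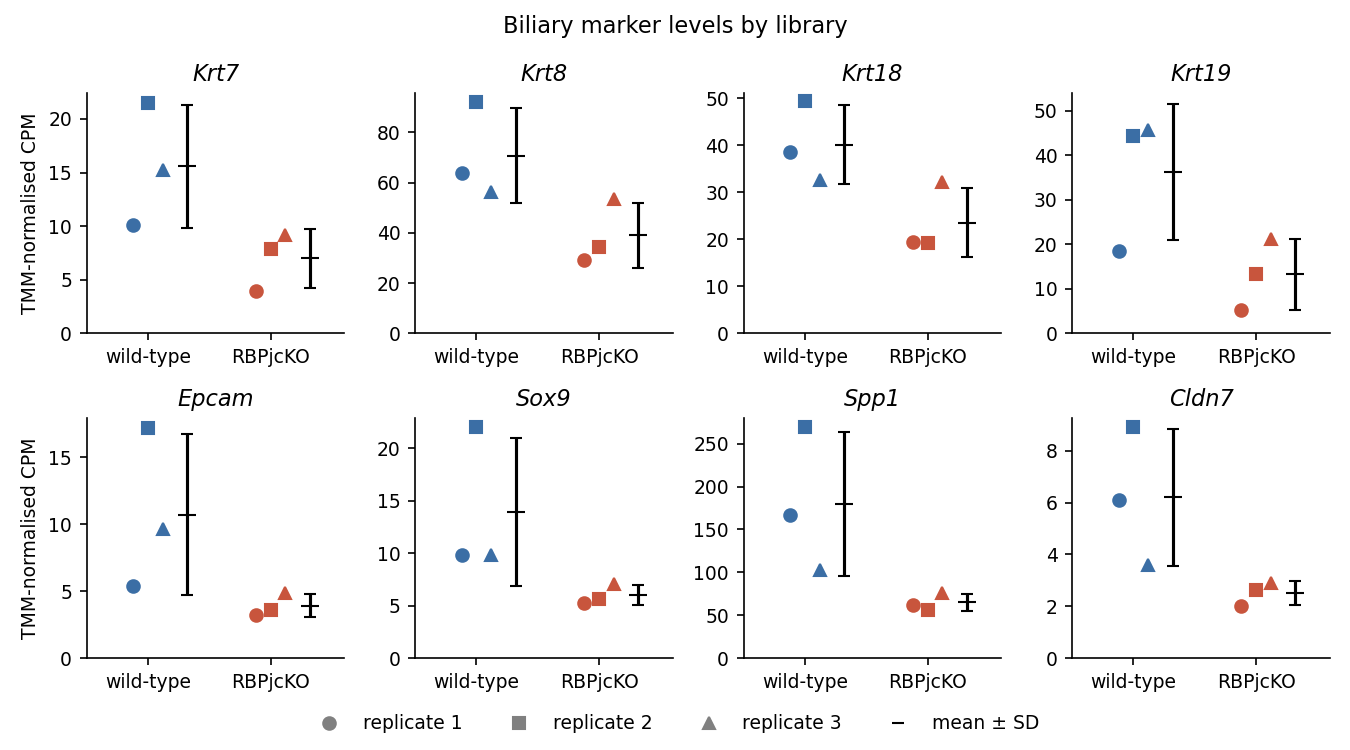
Level of each biliary marker in the 6 libraries as TMM-normalised CPM, with 1 point per library, the marker shape giving the replicate, and the bar giving mean ± SD of 3 libraries. Wild-type replicate 2 (blue square) was highest for 7 of the 8 genes, and only for Krt19 did the groups overlap.

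Promoter sequences are shown for the 3 called genes that have an entry at the same start in RefSeq (GRCm38.p6), Spp1, Epcam and Cldn7, and for Krt8, the single marker whose promoter held the letters bound by RBPJ. Entries matched for 6 of the 8 genes, with Krt19 and Sox9 the others. Each sequence covers 250 bases before to 50 bases after the gene start, 5′ to 3′ on the strand of the gene, and capitals mark the motifs named beneath them.
Krt8 (chr15:102004293-102004592, minus strand): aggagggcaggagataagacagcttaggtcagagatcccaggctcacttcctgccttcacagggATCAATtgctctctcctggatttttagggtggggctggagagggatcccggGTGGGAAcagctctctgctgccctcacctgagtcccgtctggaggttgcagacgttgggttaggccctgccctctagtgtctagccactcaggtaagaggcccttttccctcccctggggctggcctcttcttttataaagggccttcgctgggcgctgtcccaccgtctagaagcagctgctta
Spp1 (chr5:104434861-104435160, plus strand): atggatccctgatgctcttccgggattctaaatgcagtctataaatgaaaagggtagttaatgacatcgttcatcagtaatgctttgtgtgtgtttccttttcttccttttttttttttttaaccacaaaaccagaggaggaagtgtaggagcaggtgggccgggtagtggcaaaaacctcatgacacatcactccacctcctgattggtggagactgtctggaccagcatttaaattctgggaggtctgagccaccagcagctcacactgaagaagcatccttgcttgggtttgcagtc
Epcam (chr17:87635729-87636028, plus strand): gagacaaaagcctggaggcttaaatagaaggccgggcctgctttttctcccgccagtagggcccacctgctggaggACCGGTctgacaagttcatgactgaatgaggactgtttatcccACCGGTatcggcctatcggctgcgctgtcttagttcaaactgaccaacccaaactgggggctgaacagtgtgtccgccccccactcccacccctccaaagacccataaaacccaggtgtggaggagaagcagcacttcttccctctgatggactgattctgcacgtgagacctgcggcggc
Cldn7 (chr11:69964529-69964828, plus strand): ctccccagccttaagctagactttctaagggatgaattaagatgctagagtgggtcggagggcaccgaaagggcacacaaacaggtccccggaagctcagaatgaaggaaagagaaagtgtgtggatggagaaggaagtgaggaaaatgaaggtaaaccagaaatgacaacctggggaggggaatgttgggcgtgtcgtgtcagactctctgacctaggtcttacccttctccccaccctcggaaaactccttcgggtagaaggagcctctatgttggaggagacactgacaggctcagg

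The RBPJ core TGGGAA, searched on both strands, was present in the Krt8 promoter, where it starts at base -134 from the gene start, and in none of the other 5 promoters matched. It was held by 25.6% of 32851 RefSeq promoters of the same length, and the longer form GTGGGAA, which contains the core and was also in the Krt8 promoter, by 6.38%. Motifs of epithelial transcription factors were searched after the sequences had been seen. The ONECUT letters ATCAAT were in the Krt8 promoter (base -186; 7.54% of all promoters), and the Grainyhead core ACCGGT occurred in the Epcam promoter at bases -174 and -131 (2.33%). The Spp1 and Cldn7 promoters held none of these letters. A match is a run of letters and not a measured binding site.

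Spp1 was the most abundant of the 8 transcripts and had the lowest adjusted p among them. Spp1 (chr5:104435111-104441053, plus strand, GRCm38) was at 167, 269 and 103 CPM in wild-type and at 62.5, 56.7 and 76.3 CPM in RBPjcKO replicates 1 to 3. The wild-type libraries spread widely and the RBPjcKO libraries lay close together, with no overlap. Mean levels were 180 ± 83.8 CPM (SD, n = 3) for wild-type and 65.2 ± 10.1 CPM for RBPjcKO libraries. Spp1 fell 2.76-fold, with a log2 fold change, RBPjcKO over wild-type, of -1.46 (standard error, SE, 0.32; edgeR quasi-likelihood adjusted p = 0.0234).

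The receptors of osteopontin, integrins and CD44, showed no shared direction. Of 11 receptor genes, 2 rose and 2 fell, with a median log2 fold change of -0.20. Itga8, an integrin subunit of stellate cells and smooth muscle, rose from 47.8 ± 7.83 to 108 ± 19.7 CPM (by edgeR's quasi-likelihood test, adjusted p = 0.00612). Itga5, the fibronectin receptor subunit, rose from 144 ± 18.1 to 286 ± 6.41 CPM (by edgeR, adjusted p = 0.00246). Itga9 fell 1.63-fold from 936 ± 92.2 to 575 ± 27.2 CPM (adjusted p = 0.00692). The low-level subunit Itgb8 fell 3.19-fold from 2.14 ± 1.14 to 0.670 ± 0.154 CPM (by edgeR, adjusted p = 0.0386), and was called in 1 of the 6 fits that left out a library.

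Epcam and Cldn7 encode a homophilic adhesion molecule and a tight junction claudin that bind each other in the epithelial membrane. Epcam (chr17:87635979-87651127, plus strand) was at 5.35, 17.2 and 9.62 CPM in wild-type and at 3.24, 3.61 and 4.88 CPM in RBPjcKO libraries. The groups did not overlap, but wild-type replicate 1 lay close to RBPjcKO replicate 3. From 10.7 ± 6.02 to 3.91 ± 0.859 CPM, Epcam fell 2.75-fold (log2 fold change of -1.46 with SE 0.41; edgeR quasi-likelihood adjusted p = 0.0494). Cldn7 (chr11:69964779-69967886, plus strand) was at 6.11, 8.91 and 3.61 CPM in wild-type and at 2.00, 2.64 and 2.90 CPM in RBPjcKO libraries. Here wild-type replicate 3 was the lowest of its group, still above every RBPjcKO library. From 6.21 ± 2.65 to 2.51 ± 0.466 CPM, Cldn7 fell 2.47-fold (log2 fold change of -1.31 with SE 0.34; edgeR quasi-likelihood adjusted p = 0.0414).

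Among 17 partners of EpCAM and the claudins, 5 fell and 2 rose, with a median of -0.46. Marveld3, a tetraspan protein of tight junctions, fell 3.49-fold to 0.679 ± 0.0996 CPM (by edgeR's quasi-likelihood test, adjusted p = 0.00612). Cgn, which encodes the junction plaque protein cingulin, fell 3.36-fold, from 10.5 ± 3.27 to 3.12 ± 0.478 CPM (adjusted p = 0.00666). St14, the membrane protease matriptase that cleaves EpCAM, and Spint1, its inhibitor, fell 2.33-fold and 2.94-fold (by edgeR, adjusted p = 0.0109 and 0.00944). These 4 were called in all 6 fits that left out a library. The 2 that rose were Cldn12 (14.1 ± 3.02 to 24.8 ± 4.79 CPM, adjusted p = 0.0336) and the endothelial claudin Cldn5 (513 ± 78.0 to 813 ± 153 CPM, edgeR adjusted p = 0.0385), called in 2 and 1 of those 6 fits. Both were named after their values were seen, as was the cytoplasmic scaffold Tjp1, which stood at 396 ± 39.2 CPM in wild-type libraries and 384 ± 61.8 CPM in the others.

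Sox9 (chr11:112782210-112787757, plus strand) was at 9.82, 22.0 and 9.84 CPM in wild-type and at 5.23, 5.68 and 7.08 CPM in RBPjcKO libraries. Wild-type replicate 2 stood apart from the other two wild-type libraries, which were nearly equal, and the groups did not overlap. Sox9 fell 2.32-fold from 13.9 ± 7.02 to 6.00 ± 0.966 CPM (log2 fold change of -1.21 with SE 0.34; edgeR quasi-likelihood adjusted p = 0.0482).

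Of 13 tested biliary transcription factor genes, 3 fell and 1 rose, with a median of -0.80. Grhl2, a Grainyhead factor of epithelial junction genes, fell 3.64-fold from 3.48 ± 0.977 to 0.955 ± 0.325 CPM (by edgeR's quasi-likelihood test, adjusted p = 0.0160). Onecut1, which encodes HNF6 and acts in duct formation, fell 3.47-fold to 0.729 ± 0.183 CPM (adjusted p = 0.0344). Sox4, a relative of Sox9 that is not restricted to epithelium, rose from 43.2 to 61.4 CPM (log2 fold change of 0.51 with SE 0.11; edgeR quasi-likelihood adjusted p = 0.0199). Grhl2, Onecut1 and Sox4 were called in 5, 1 and 4 of the 6 fits that left out a library, and no factor was called lower without wild-type replicate 2.

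None of the 4 keratins passed the threshold. Krt8 (chr15:101996711-102004342, minus strand) was at 64.0, 92.2 and 56.3 CPM in wild-type and at 29.2, 34.5 and 53.6 CPM in RBPjcKO libraries. Its partner Krt18 (chr15:102028216-102032026, plus strand) was at 38.7, 49.4 and 32.6 CPM and at 19.4, 19.3 and 32.2 CPM. In both genes RBPjcKO replicate 3 came within a few percent of wild-type replicate 3, and the other RBPjcKO libraries were far lower. The log2 fold changes were -0.86 (SE 0.26, edgeR quasi-likelihood adjusted p = 0.0624) for Krt8 and -0.77 (SE 0.24, adjusted p = 0.0646) for Krt18. The pair lies head to head on chromosome 15 with 23874 bases between the gene starts. The ratio of Krt8 to Krt18 in RPKM (counts scaled by gene length and library total) was 1.28, 1.45 and 1.34 in wild-type and 1.16, 1.39 and 1.29 in RBPjcKO libraries, so it varied 1.24-fold while the levels in CPM varied 3.16-fold and 2.56-fold.

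Krt7 (chr15:101412403-101427806, plus strand), the type II keratin of duct cells, was at 10.1, 21.5 and 15.2 CPM in wild-type and at 3.94, 7.92 and 9.14 CPM in RBPjcKO libraries. The highest RBPjcKO library lay just under the lowest wild-type library. Mean levels were 15.6 ± 5.74 and 7.00 ± 2.72 CPM (log2 fold change of -1.16 with SE 0.37; edgeR quasi-likelihood adjusted p = 0.0692). Krt19 (chr11:100140811-100145919, minus strand), a type I keratin of duct cells, was at 18.6, 44.4 and 45.8 CPM in wild-type and at 5.31, 13.4 and 21.3 CPM in RBPjcKO libraries. Here RBPjcKO replicate 3 exceeded wild-type replicate 1, so the groups overlapped. Mean levels of Krt19 were 36.3 ± 15.3 and 13.3 ± 7.97 CPM (log2 fold change of -1.45 with SE 0.51; edgeR quasi-likelihood adjusted p = 0.0926). Its fold was close to that of Epcam and Spp1, with the largest standard error of the 8 genes.

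Summed by keratin type in RPKM, Krt7 plus Krt8 over Krt18 plus Krt19 was 1.01, 0.956 and 0.721 in wild-type and 1.05, 1.02 and 0.923 in RBPjcKO libraries. The ratio was close to 1 in 5 libraries and lowest in wild-type replicate 3, where Krt19 made up more of the type I keratin than Krt18. Of 48 other keratin genes in the table only 6 were tested and 5 reached 1 CPM in a group. Krt23, a type I keratin, was the single one called, and fell 2.11-fold from 4.62 ± 0.817 to 2.19 ± 0.0619 CPM (by edgeR's quasi-likelihood test, adjusted p = 0.0175).

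**Figure D2:**
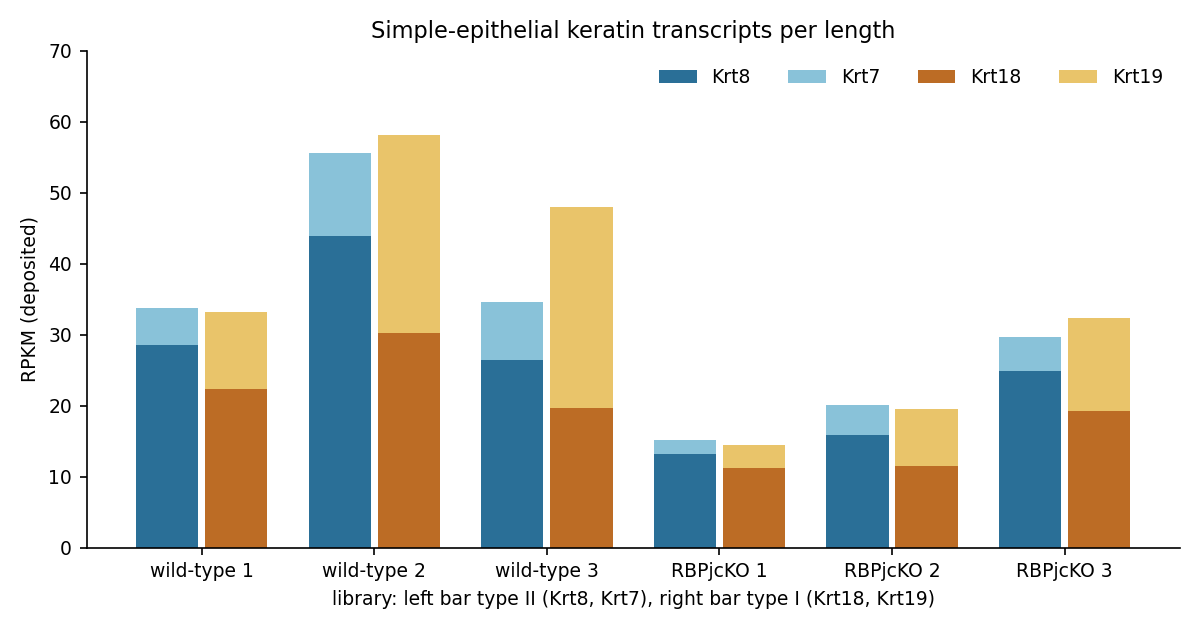
RPKM of the 4 simple-epithelial keratins per library, as deposited, with type II keratins stacked in the left bar and type I in the right bar of each library. The bars of a library are of similar height except in wild-type replicate 3, where Krt19 reached 28.3 RPKM beside 19.7 for Krt18.

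Among transcripts of proteins that anchor keratin filaments at desmosomes, all that were called fell except Jup. Of 11 genes listed as keratin partners 4 fell and 1 rose, with a median of -0.70. The list is wider than desmosomes and also counts Krtcap2 and Krtcap3, which do not anchor keratin and were not called. Ppl, the filament linker periplakin, fell 3.21-fold from 29.4 ± 8.78 to 9.13 ± 2.60 CPM (by edgeR's quasi-likelihood test, adjusted p = 0.0101). The desmosomal cadherin Dsg2 fell 3.01-fold from 52.9 ± 16.1 to 17.6 ± 6.10 CPM (adjusted p = 0.0134). Dsp, which encodes desmoplakin, fell 2.49-fold (by edgeR, adjusted p = 0.0238), and Pkp2, the desmosomal plaque protein plakophilin 2, fell 2.08-fold (adjusted p = 0.0405), called in 2 and 1 of the 6 fits that left out a library. Jup, which encodes plakoglobin and is also a part of endothelial adherens junctions, rose from 181 ± 11.4 to 284 ± 15.6 CPM (adjusted p = 0.00518), and it was named after its values were seen.

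Across genes, levels were compared per length in RPKM. In wild-type libraries mean levels ran from Spp1 (91.2 RPKM) through Krt8 (33.0), Krt18 (24.1), Krt19 (22.3), Krt7 (8.31), Epcam (4.41) and Cldn7 (3.59) to Sox9 (2.83 RPKM). The order of the means was the same in RBPjcKO libraries, where it ran from 32.6 RPKM for Spp1 to 1.20 RPKM for Sox9. Spp1 stood above Krt8 in every library of both groups. Apart from Spp1 and Krt8, the wild-type ranges of all neighbours in this order overlapped. Within a library, Krt8 exceeded Krt18, Krt19 exceeded Krt7 (1.56-fold to 3.47-fold), Krt7 exceeded Epcam and Cldn7 exceeded Sox9 in all 6, while Krt18 and Krt19, and Epcam and Cldn7, changed places between libraries. For scale, Stab2 had a mean of 410 RPKM in wild-type and 505 RPKM in RBPjcKO libraries.

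The wider set of biliary epithelial genes had a similar median. Of 31 other biliary genes, all tested, 17 fell and none rose, with a median log2 fold change of -1.29. Over all tested genes 7.74% were called lower. In 21 of the 31 every RBPjcKO library lay below every wild-type library, which held for 19.6% of all tested genes. Pkhd1, which encodes the ciliary protein fibrocystin, was at 15.8, 31 and 14.4 CPM in wild-type and at 4.51, 4.13 and 5.19 CPM in RBPjcKO libraries. As with Spp1 and Sox9, wild-type replicate 2 was the highest and the RBPjcKO libraries were tight. Pkhd1 fell 4.43-fold (by edgeR's quasi-likelihood test, adjusted p = 0.00609), and Slc5a1, the apical glucose transporter SGLT1, fell 3.29-fold from 14.4 ± 5.45 to 4.37 ± 0.307 CPM (adjusted p = 0.00921). Grhl2 and Onecut1, given above, completed the largest 4. The lists overlap, since Grhl2 and Onecut1 are counted among the transcription factors too, and Spint1, St14, Cldn3 and Cldn4 among the EpCAM and claudin partners.

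Of the 14 biliary genes not called, 3 had positive values, Lcn2 and Cd24a among them. Lcn2, an acute-phase lipocalin that hepatocytes also secrete, was at 61.1, 16.8 and 14.6 CPM in wild-type and at 36, 62.7 and 95.4 CPM in RBPjcKO libraries (log2 fold change 1.07; by edgeR's quasi-likelihood test, adjusted p = 0.234). Without wild-type replicate 1, its highest wild-type library, Lcn2 was called higher, with a log2 fold change of 2.04 (by edgeR, adjusted p = 0.0332). Cd24a stood at 18.1 ± 4.47 and 19.9 ± 8.56 CPM (adjusted p = 0.784). The chloride channel Cftr and the secretin receptor Sctr, which define transporting cholangiocytes, were near the floor at 0.762 ± 0.408 and 0.378 ± 0.0773 CPM in wild-type and at 0.230 ± 0.0952 and 0.128 ± 0.0523 CPM in RBPjcKO libraries, though neither was at 0 in any library. These 4 genes were named after their values were seen.

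**Figure D3:**
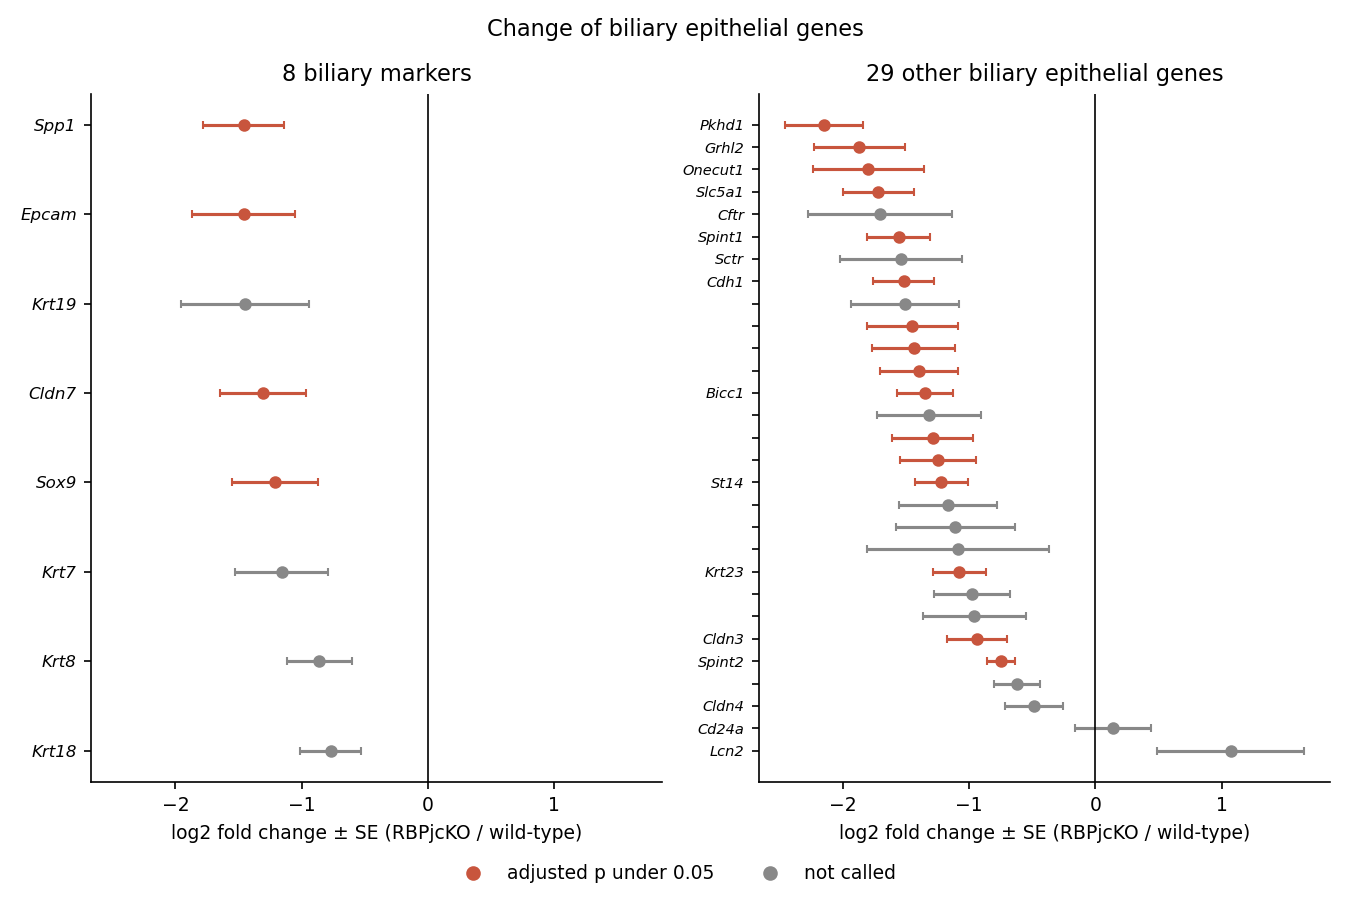
Log2 fold change of RBPjcKO over wild-type libraries with its standard error from edgeR's quasi-likelihood fit, for the 8 biliary markers (left) and 29 of the other biliary epithelial genes (right, labelled where named in the text, except Clu), with 3 libraries a group. Red points have an adjusted p under 0.05; all 8 markers and 27 of these 29 genes lie left of 0.

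Within groups the biliary markers shared part of their pattern over the libraries. In wild-type replicate 3, however, Spp1, Cldn7, Krt8 and Krt18 were at the lowest level of their group and Krt19 at the highest. Wild-type replicate 2 was the highest of all 6 libraries for 7 of the 8 genes, RBPjcKO replicate 3 was the highest of its group for all 8, and RBPjcKO replicate 1 was the lowest library for 6. Summed over the 8 genes, levels were 319.6, 524.9 and 276.3 CPM in wild-type and 130.8, 143.8 and 207.4 CPM in RBPjcKO replicates 1 to 3. The 31 other biliary genes summed to 926.0, 1328.0 and 863.3 CPM and to 594.0, 598.3 and 758.4 CPM. The order of the 6 libraries was the same in both sums, but each sum leans on 1 abundant gene. Spp1 was the largest part of the first in every library. Clu (clusterin) gave 519, 789 and 521 CPM of the second in wild-type and 384, 363 and 442 CPM in RBPjcKO libraries. From the lowest to the highest library the span ran from 2.56-fold for Krt18 to 8.63-fold for Krt19.

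Ratios between the markers show which of them kept in step. Cldn7 over Spp1, in RPKM, varied 1.46-fold across the 6 libraries and Sox9 over Spp1 varied 1.70-fold. Epcam over Spp1 varied 2.91-fold and Krt19 over Spp1 varied 5.23-fold, from 0.103 in RBPjcKO replicate 1 to 0.536 in wild-type replicate 3. Krt19 over the duct keratin Krt7 varied 2.23-fold, and Krt19 over the mesothelial gene Msln (mesothelin) varied 1.55-fold, from 1.05 to 1.63.

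The order of libraries for Krt19, wild-type 3, wild-type 2, RBPjcKO 3, wild-type 1, RBPjcKO 2 and RBPjcKO 1 from high to low, was the order of the summed mesothelial markers. It was also the order of 5 of the 9 mesothelial genes in the table, and of 65 tested genes other than Krt19. The mesothelial sum was 70.5, 189.5 and 237.0 CPM in wild-type and 34.9, 59.4 and 106.5 CPM in RBPjcKO libraries. Of those 9 genes none was called and none was at 0 in any library, and their median log2 fold change was -1.27. DESeq2 called 3 of the 9 lower, and the fits that left out a library called 0 to 2 lower. Msln was at 39.8 CPM and Upk3b, a uroplakin of mesothelium, at 43.3 CPM in wild-type, against 16.8 and 15.6 CPM in RBPjcKO libraries (by edgeR's quasi-likelihood test, adjusted p = 0.201 and 0.149). With the mean mesothelial level of each library as a covariate, added after the data were seen, none of the 8 markers was called. The log2 fold change of Krt19 was then -0.39 in place of -1.45, that of Krt7 -0.46 in place of -1.16, and those of Krt8 and Krt18 -0.55 each. For Epcam it was -0.69, for Sox9 -0.81, for Cldn7 -1.17 and for Spp1 -1.36, so Spp1 and Cldn7 moved least. That fit called 1501 genes in all, against 2489 without the covariate, and the part of mesothelium in the results was not tested further.

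**Figure D4:**
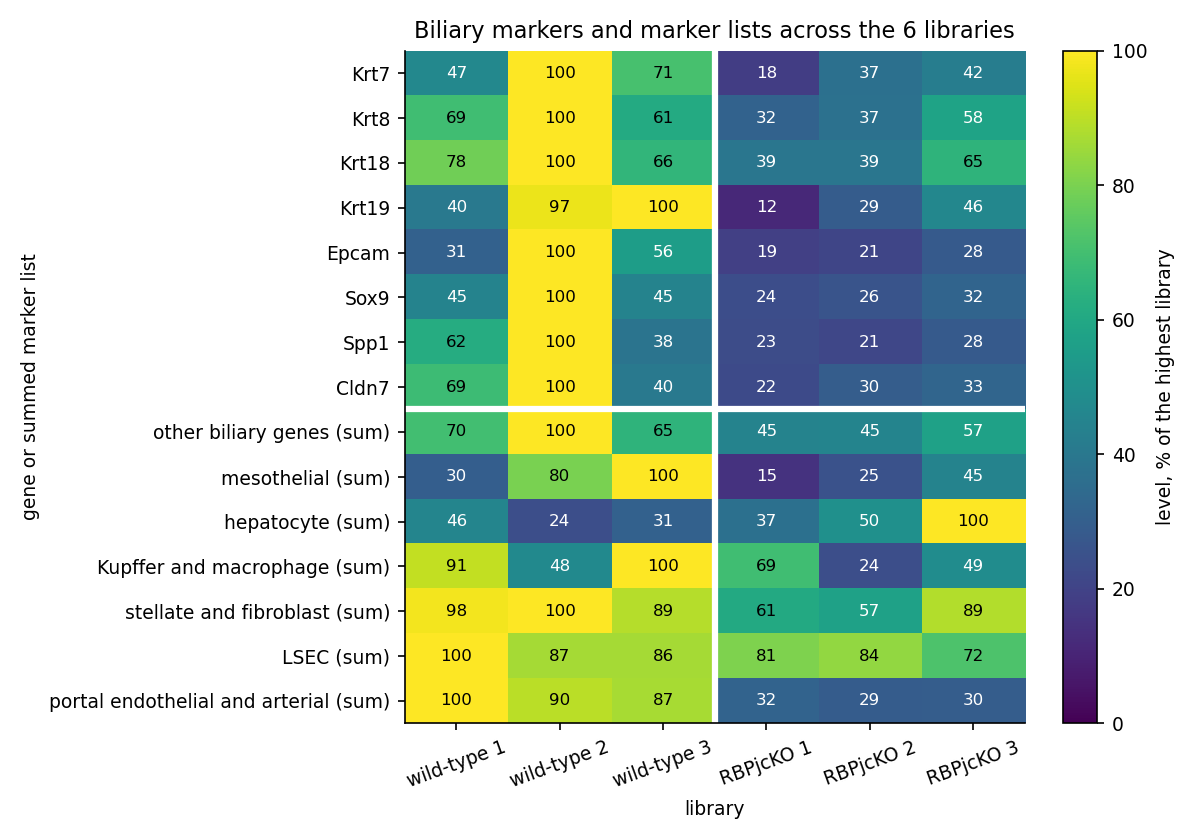
Level of each biliary marker and summed level of marker lists in each library, as a percent of the highest library of its row. Most biliary markers peaked in wild-type replicate 2, Krt19 and the mesothelial sum in wild-type replicate 3, and the hepatocyte sum in RBPjcKO replicate 3.

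Markers of other liver cells also moved between libraries. The 24 hepatocyte markers summed to 2967.1, 1549.5 and 2006.1 CPM in wild-type and 2406.1, 3265.2 and 6488.9 CPM in RBPjcKO libraries. Of these 24 genes 5 rose and none fell, led by Fgb, Apoa1, Fga and Fgg, with a median of 1.16 and none at 0. They were lowest in wild-type replicate 2, where Krt8 and Krt18 were highest, and highest in RBPjcKO replicate 3, so the ratio of Krt18 to Alb (albumin) varied 4.68-fold. The count of called hepatocyte genes depended on single libraries, with 0 without wild-type replicate 2 or 3 and 11 without RBPjcKO replicate 1, and DESeq2 called 14 higher. With the mean hepatocyte marker level as a covariate none of the 8 markers was called, and 297 genes were called in all. That level, in log2 CPM, was 4.953 to 5.901 in wild-type and 5.941 to 7.419 in RBPjcKO libraries. Since it did not overlap between the groups, its effect and that of genotype cannot be fully told apart in this fit. The log2 fold changes of the 4 called markers were then nearer 0, at -1.19 for Epcam, -0.99 for Sox9, -1.37 for Spp1 and -1.29 for Cldn7. Those of the keratins were further from 0, at -2.15 for Krt19, -1.30 for Krt7, -1.17 for Krt8 and -1.10 for Krt18.

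Stellate and fibroblast markers summed to 1967.9 to 2217.0 CPM in wild-type and 1273.3 to 1964.9 CPM in RBPjcKO libraries, and 4 of 14 fell (Hhip, Reln, Pdgfra and Dcn), or 1 without wild-type replicate 2 and 6 without RBPjcKO replicate 3. Portal endothelial and arterial markers summed to 4569.9 to 5262.1 CPM in wild-type and 1538.6 to 1681.7 CPM in RBPjcKO libraries. Of these markers 10 of 12 fell, with a median of -1.74, led by Mecom, Gja5, Ntn4 and Vwf. Which cells these transcripts came from was not tested. Kupffer cell and macrophage markers summed to 1586.2 to 3334.0 CPM and 805.5 to 2314.8 CPM, and none of 15 was called, Clec4f and Cd5l being the most abundant. Of these 15 genes 14 were below 0, with a median of -0.85. DESeq2 called 2 of them lower, as did the edgeR fit without RBPjcKO replicate 1. Lymphocyte markers summed to 63.4 to 71.5 CPM and 21.8 to 82.2 CPM, and 2 of 11 rose, Cd79a of B cells at 1 CPM or more, while 7 of the 11 were below 0 with a median of -0.78. Without RBPjcKO replicate 2, the highest library of this sum, 5 were called lower and the median was -1.62. The 12 LSEC markers summed to 34012.9 to 39369.2 CPM and 28291.5 to 32923.2 CPM, and 4 fell (Ehd3, Dnase1l3, Clec4g and Mrc1). Of the 12 LSEC markers 6 were below 0 and 6 above 0, with a median of -0.09. DESeq2 called 5 of them lower and 3 higher. No gene of these lists was at 0 in any library, and their part in the levels of the biliary markers was not tested.

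Genes whose log2 CPM over the 6 libraries ran most like the mean profile of Krt7, Krt19, Epcam and Cldn7 were Emp2 (Pearson's r = 0.998), Lyar (0.996), Cryab (0.995), Fam115c (0.994) and Rnf152 (0.992), among 13282 genes compared. Emp2 was at 17.4, 26.2 and 19.6 CPM in wild-type and at 10.4, 12.8 and 14.7 CPM in RBPjcKO libraries. The groups did not overlap, and its span was smaller than those of the 4 genes. For Spp1 they included Rap1gap (0.996), Pdzk1ip1 (0.994), Fam13a (0.992) and Zranb1 (0.991). Rap1gap was at 10.3, 15.1 and 7.62 CPM in wild-type and at 4.51, 4.48 and 5.39 CPM in RBPjcKO libraries. For Krt19, a search added after its values were seen, they were Rragd (0.996), Lrrn4 (0.995), 2310030G06Rik (0.994), Gata6 (0.993) and Gpr133 (0.993), of which Lrrn4 is on the mesothelial list. These are descriptions over 6 libraries that share a group difference and depth.

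The calls rested on few libraries, for the markers and over all genes. Over all genes tested, 2489 were called in either direction with all 6 libraries, and 796 to 1836 with 1 library left out. When each library was left out in turn, 0 to 3 of the 8 markers were called lower: none when RBPjcKO replicate 1 or 2 was left out, 1 when wild-type replicate 1 or 2 was, and 3 when replicate 3 of either group was. Spp1 was called in 3 of the 6 fits, with adjusted p from 0.0101 to 0.0734 by edgeR's quasi-likelihood test. Each of Epcam, Sox9 and Cldn7 was called in 1, and so were Krt8 and Krt18, both when RBPjcKO replicate 3 was left out. The log2 fold change of every marker stayed below 0 in every such fit. Among the other biliary genes 7 to 18 were called lower, with the fewest without wild-type replicate 2. Of these 31 genes 7 were called in all 6 fits, Cdh1, Bicc1, Pkhd1, Spint1, Spint2, St14 and Slc5a1. Cdh1, which encodes E-cadherin and, with Bicc1 and Spint2, was named after its values were seen, fell 2.87-fold from 39.8 ± 13.5 to 13.9 ± 1.90 CPM (adjusted p = 0.00838). DESeq2 called 7 of the 8 markers lower, all but Krt19, against 11.2% of the genes it tested.

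**Figure D5:**
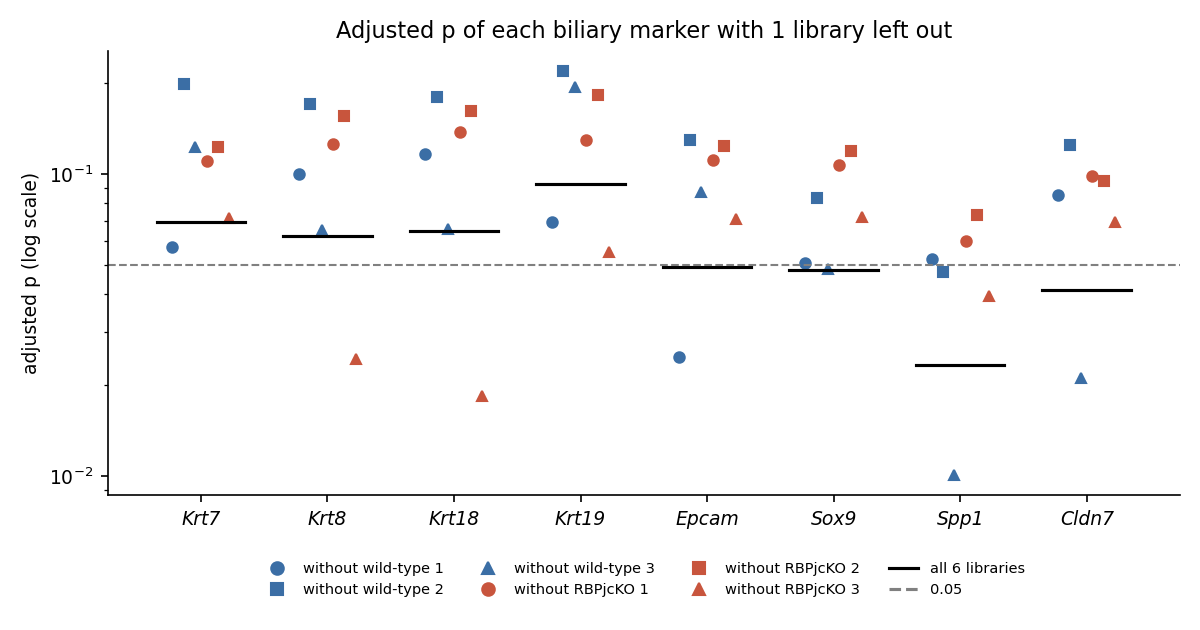
Adjusted p of each biliary marker from edgeR's quasi-likelihood test (log axis) with all 6 libraries (black line) and with each library left out (points), beside the threshold of 0.05 (dashed). Spp1 had 3 points under the threshold, Epcam, Sox9, Cldn7, Krt8 and Krt18 had 1 each, and Krt7 and Krt19 had none.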

How the data were processed

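RNA was extracted with Trizol from LSECs and sequenced as paired reads of 150 bases on an Illumina HiSeq instrument, per the labels' protocols. Per the submitters' processing notes, reads went through bcl2fastq and TopHat2 2.0.13 with the mm10 (GRCm38) build. The sources used here do not give the counting tool, gene annotation or strand setting. Per the file headers, the authors' table holds raw counts of reads for each gene, not normalised, and the authors also deposited RPKM values. These equal the count over gene length and column total. Libraries were grouped by the genotype label, and replicate numbers follow sample order.

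Of 56825 entries, 33353 cDNA clones were left out, since a clone counts reads again where it overlaps a gene, 1 entry was emptied for this work, and 27 symbols stored as dates were restored by Entrez identifier. No named gene overlaps the 8 markers. A clone overlaps Sox9 and another Spp1.

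Low counts were removed with edgeR's filterByExpr. It kept genes with the CPM equivalent of 10 counts in at least 3 libraries, the group size, and 15 counts in total. TMM-scaled counts were tested by edgeR 4.0.16 (quasi-likelihood F test, R 4.3.3), with Benjamini-Hochberg adjustment over 14869 genes and a threshold of 0.05. The SE was approximated as the log2 fold change divided by the square root of the F statistic. The script was tested on simulated data. The lowest count of a marker in a library was 77. Alternatives were DESeq2 1.42.0, limma 3.58.1 on log2(RPKM + 1), other filters and scalings, clones kept, a robust fit, an adjusted p under 0.01, leaving out each library, and a hepatocyte covariate, with a mesothelial covariate added after the data were seen. Tables and figures used Python 3.11.15.

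The 8 markers, the gene lists and the tests were chosen with earlier results of these data known. Named genes are the 8 markers, Rbpj, of each list the 4 largest changes among called genes that reached 1 CPM in a group (the 2 most abundant where none was called), and the 5 genes most like Spp1 and like the profile of Krt7, Krt19, Epcam and Cldn7, among genes with a mean of at least 1 CPM. Stab2, Alb and Krt23 were named in addition, and Clu, Krtcap2 and Krtcap3 after their values were seen. Values of some genes of the lists are left out of the text.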

Additional observations from a re-analysis of the deposited data

How the results depend on the processing

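Under the 17 alternatives the log2 fold change of each of the 8 markers stayed below 0 (136 of 136 values), while calls depended on the setting. Of the 8 markers, 7 were called lower by DESeq2, 2 without scaling beyond library totals, 1 by limma on log2(RPKM + 1), 2 in the robust fit, and 0 at an adjusted p under 0.01, with the hepatocyte covariate or with the mesothelial covariate. Genes called in all numbered 605, 297 and 1501 in the last 3 settings, and other biliary genes called lower 6, 0 and 5. DESeq2 added calls for Krt7 (-1.16), Krt8 (-0.86) and Krt18 (-0.77), and testing without a filter added Krt8 (-0.86).

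Calls were lost as follows, with the log2 fold change in that setting. Without scaling, Epcam (-1.49) and Sox9 (-1.24) were lost. By limma they were Epcam (-0.97), Sox9 (-0.74) and Cldn7 (-0.86), and in the robust fit Epcam (-1.46) and Sox9 (-1.21). All 4 called markers were lost at an adjusted p under 0.01, where Epcam (-1.46), Sox9 (-1.21), Spp1 (-1.46) and Cldn7 (-1.31) keep their values. They were also lost with the hepatocyte covariate (Epcam -1.19, Sox9 -0.99, Spp1 -1.37, Cldn7 -1.29) and with the mesothelial covariate (Epcam -0.69, Sox9 -0.81, Spp1 -1.36, Cldn7 -1.17). The keratins, not called in either, were at -2.15 (Krt19), -1.30 (Krt7), -1.17 (Krt8) and -1.10 (Krt18) with the first and at -0.39, -0.46, -0.55 and -0.55 with the second. The hepatocyte covariate did not overlap between the groups, so its effect and that of genotype cannot be fully told apart. The cause was not tested.

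With each library left out, 0 to 3 markers, 7 to 18 other biliary genes and 796 to 1836 genes in all were called. The log2 fold changes ran from -1.40 to -0.86 for Krt7, -1.15 to -0.63 for Krt8, -1.05 to -0.61 for Krt18, -1.96 to -1.08 for Krt19, -1.78 to -0.94 for Epcam, -1.41 to -0.72 for Sox9, -1.75 to -1.06 for Spp1 and -1.58 to -0.96 for Cldn7. No paired analysis was possible because the labels give no pairing of the libraries. With 3 libraries a group, 1 library decided many of these calls, and counts of the markers were 77 or more.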
